A study of Mus musculus with 3 samples.

Results

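Bcl11b, Tcf7, Gata3 and Lef1 are 4 genes for transcription factors of the T cell lineage, taken here as named genes, and they were read from the rows that carry their symbols in the count tables of the series. They are 4 of 27734 genes listed in all runs, and they were followed through 21879 of 23283 cells, those with 500 to 5000 genes detected and at most 7% of their counts on mitochondrial genes. The series holds 3 droplet libraries of single cells from the thymus of C57BL/6 mice aged 6 to 8 weeks, and the mice carried no transgene or treatment in the labels. Each library came from 4 pooled thymi, depleted of CD4- and CD8-bearing cells and then sorted. The sorts also left out cells that stained for B220, CD11b, CD11c, NK1.1 or TCRβ. Run 1 held total double negative (DN) and TCRγδ+ thymocytes. Run 2 held DN1 and DN2 cells without TCRγδ+ cells, and run 3 held DN1 with DN2, DN3 and TCRγδ+ cells that were sorted apart and then mixed. Each sort was made once, so the 3 runs differ in their sort as well as in their animals. The study also names different kit versions and sequencers without giving them by run, and runs 1 and 2 list 28692 genes against 32285 in run 3. With the run as a block in the tests, p-values measure how far differences between groups of cells vary from run to run, pooled over all groups in the fit.

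T cells are made in the thymus from progenitors that still can give other blood cells. Early thymic progenitors (ETP) lie within DN1, gain CD25 (Il2ra) as DN2, commit to the T lineage between DN2a and DN2b, rearrange the T cell receptor β chain as DN3 and lose CD25 as DN4. Notch signals from the thymic stroma switch on Tcf7 and Gata3. Tcf7 encodes TCF1 and Lef1 encodes its relative LEF1, both high mobility group proteins of the Wnt pathway that also act with few or no Wnt signals. Gata3 encodes a zinc finger protein needed from the first thymic stages. Bcl11b encodes a zinc finger protein whose activation marks commitment, and its loss leaves cells with stem-like or natural killer-like features.

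In GRCm38 (mm10), Bcl11b lies at chr12:107910403-108003602 on the minus strand, Tcf7 at chr11:52252371-52283014 on the minus strand, Gata3 at chr2:9857078-9890034 on the minus strand and Lef1 at chr3:131110471-131224356 on the plus strand, as GENCODE places the genes. The upstream sequence of Lef1, the factor that rose at the later stages, and a site before the start of Bcl11b, the factor with the steepest rise, are shown to be read beside the levels. RefSeq (GRCm38.p6) gives 1 start for Bcl11b and 4 for Lef1, and the start nearest the GENCODE gene was used. The 250 bases before the Lef1 start (chr3:131110073-131110322, plus strand) hold 66.4% G and C. In the Bcl11b sequence (chr12:108003486-108003515, minus strand, 30 bases), capitals mark CTTTGA, a form of the site that TCF1 and LEF1 bind, 89 bases before the RefSeq start. GENCODE starts the gene 188 bases farther upstream, so this site lies in the first exon as GENCODE places it. In the Lef1 sequence, nothing is in capitals because no searched motif was found there.
Lef1: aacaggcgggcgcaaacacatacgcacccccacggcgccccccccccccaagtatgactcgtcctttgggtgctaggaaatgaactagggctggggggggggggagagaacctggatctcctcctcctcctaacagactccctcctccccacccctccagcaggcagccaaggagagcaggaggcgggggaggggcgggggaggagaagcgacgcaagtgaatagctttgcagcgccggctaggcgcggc
Bcl11b: agaggccaagcaCTTTGAagaagtgtgaga

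Motifs were searched on both strands over the 250 bases before the starts of Bcl11b and Lef1. For TCF and LEF the forms were CTTTGA and also CTTTGT, held by 27.6% of 32851 such windows of all genes. For GATA factors they were AGATAA and also TGATAA (16.6% of windows), for RUNX factors TGTGGT (14% of windows), for E proteins CAGGTG and also CAGCTG (27.7% of windows), and for RBPJ, the Notch effector, TGGGAA (21.6% of windows). Bcl11b held the 1 TCF and LEF match above and no other form, and Lef1 held none of these letters. The windows of Tcf7 and Gata3 are not described, because the RefSeq start of Gata3 lies 11434 bases from the GENCODE one and the Tcf7 window may hold coding sequence of a longer transcript. These are matches of letters and not sites of binding.

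Cells were placed in stages by transcripts that include none of the 4 factors. An ETP-like cell had no Il2ra, Ptcra, Rag1, Cpa3, Cd8a or Cd8b1 and at least 2 counts over Kit, Flt3 and Cd34, and a DN2a-like cell had Il2ra and Kit or Cpa3 without Ptcra or Rag1. A DN2b-like cell had Il2ra, Kit or Cpa3, and Ptcra or Rag1, a DN3-like cell had Il2ra and Ptcra without Kit and Cpa3, and a DN4-like cell had Cd8a or Cd8b1 without Il2ra, Kit and Cpa3. Beside the stages stood Sox13-type Trdc+ cells, with Sox13, Trdc and a further γδ marker, and NK-receptor cells, with at least 2 of Nkg7, Klrd1, Il2rb, Klrk1 and Ccl5, and these were gated before the stages. Of the kept cells, 55 were ETP-like, 3029 DN2a-like, 1396 DN2b-like, 2982 DN3-like, 1233 DN4-like, 1404 Sox13-type Trdc+ and 4757 NK-receptor cells, while 6401 met no gate. B-like cells (567) and myeloid or erythroid cells (55) were set aside.

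The runs did not fill these gates alike. ETP-like cells numbered 3 in run 1, 21 in run 2 and 31 in run 3, and run 1 was left out of every ETP comparison because gates with fewer than 20 cells in a run were not tested. DN4-like cells numbered 1143 in run 1 but 38 in run 2 and 52 in run 3, whose sorts did not take DN4. The NK-receptor gate held 72 cells in run 1, 2869 in run 2 and 1816 in run 3, and in run 1 its cells had more Trdc (942 CPM, summed UMIs scaled to a common total, against 342 and 267) and more Ptcra (107 CPM against 38.2 and 26.1) than in the other runs. Run 2 gave 339 Sox13-type Trdc+ cells although its sort left out TCRγδ+ cells. It also gave 749 DN3-like cells although it was sorted as DN1 and DN2, and these are its reference in every percent of the DN3-like level. Their Lef1 was at 70.5 CPM, against 215 and 201 CPM in runs 1 and 3, whose sorts took DN3. Run totals were 39947415, 52797915 and 98533329 unique molecular identifiers (UMIs), with medians of 5989.5, 4844 and 8507 UMIs per kept cell. Runs 1 and 2 shared 72 cell barcodes, runs 1 and 3 shared 3 and runs 2 and 3 shared 0.

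Bcl11b was the factor with the sharpest onset. Its summed level in ETP-like cells was 39.6 CPM in run 2 (7 UMIs) and 87 CPM in run 3 (33 UMIs), and in DN2a-like cells it was 528, 366.5 and 625 CPM in runs 1, 2 and 3. Both ETP-like values lay below all 3 DN2a-like values. The levels then stayed close from stage to stage, at 492, 389 and 734 CPM in DN2b-like cells and 478, 412 and 802 CPM in DN3-like cells. As a share of the DN3-like level of the same run, Bcl11b stood at 10.2% ± 0.866 (SD, n = 2 runs) in ETP-like, 92.5% ± 16.5 (n = 3) in DN2a-like and 96.3% ± 5.87 (n = 3) in DN2b-like cells. Run 3 was highest and run 2 lowest in each of these 3 later stages, so that runs differed more than the stages after DN2a did. In run 2 the paper counted Bcl11b among the late commitment genes by which it told DN2b from DN2a clusters. The DN2a-like gate was set without Bcl11b, and cells entered it when Ptcra and Rag1 went undetected. The share of committed cells in this gate was not tested, so its level does not place the onset of Bcl11b before commitment.

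**Figure D1:**
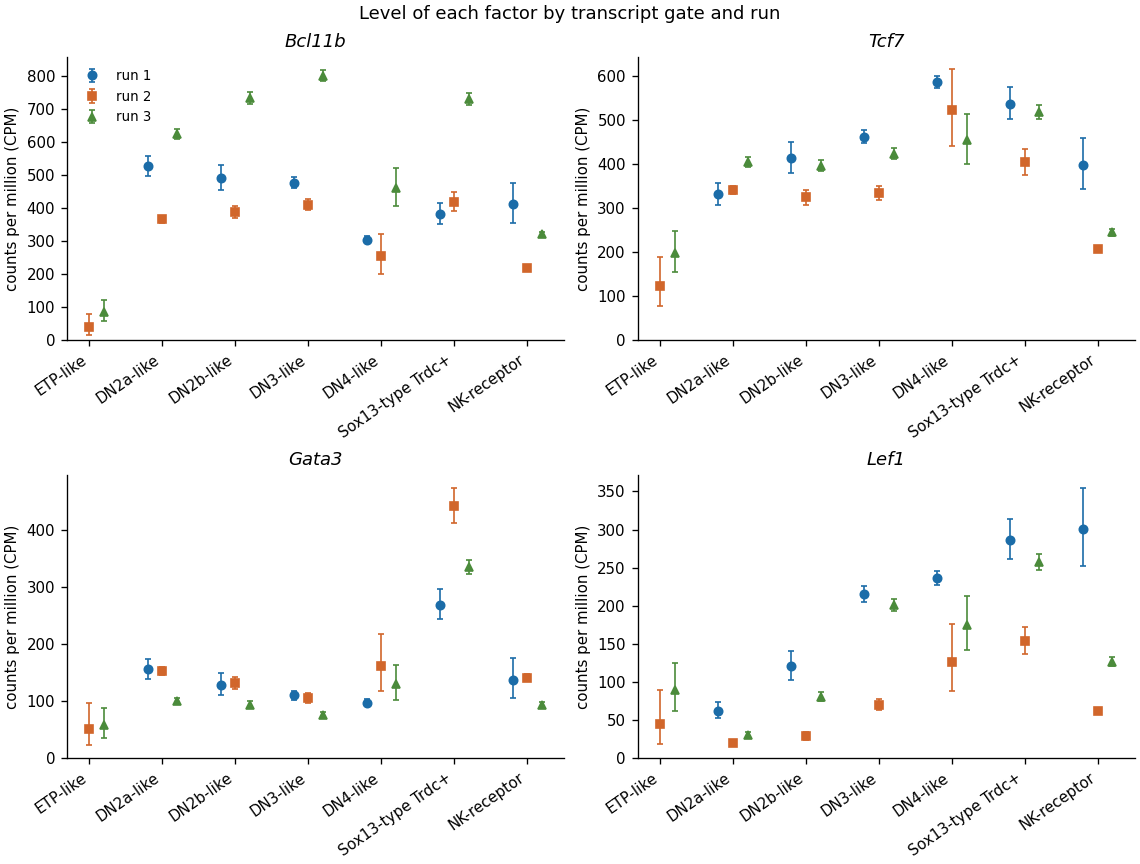
Level of each factor (y axis, CPM of the counts summed over the cells of a gate) in 7 transcript gates (x axis) for runs 1, 2 and 3, with exact Poisson 95% intervals that cover counting error only. Bcl11b goes from 39.6 and 87 CPM in ETP-like cells to 366.5 CPM or more in DN2a-like cells, Lef1 is higher at each stage from DN2a-like to DN3-like cells within a run, and Gata3 is highest in Sox13-type Trdc+ cells.

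Tcf7 was nearer to its DN3-like level in ETP-like cells than Bcl11b was. ETP-like cells had 124 CPM in run 2 (22 UMIs) and 198 CPM in run 3 (75 UMIs), and DN2a-like cells had 332, 341 and 405 CPM. Again the groups did not overlap, but the ETP-like level was already 41.9% ± 6.75 (SD, n = 2) of the DN3-like one. B-like cells, read below as a floor, had Tcf7 at 76.6 CPM in run 2 and 179 CPM in run 3. Those of run 3 with at least 4 B cell genes had 64 CPM. In both runs the counting interval of the ETP-like level met that of all B-like cells. Tcf7 levels of DN2b-like (414, 324 and 396 CPM) and DN3-like cells (462, 335 and 423 CPM) overlapped those of DN2a-like cells, which were at 89.7% ± 15.9 (n = 3) of DN3-like.

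Gata3 was highest in DN2a-like cells among the stages from ETP-like to DN3-like. It stood at 50.9 CPM in run 2 (9 UMIs) and 58 CPM in run 3 (22 UMIs) in ETP-like cells and at 156, 153 and 101 CPM in DN2a-like cells. It was then lower at each stage in each run, with 129, 132 and 93.8 CPM in DN2b-like and 110, 106 and 75.6 CPM in DN3-like cells. Relative to DN3-like cells, Gata3 was at 62.4% ± 20.2 (SD, n = 2) in ETP-like, 140% ± 5.68 (n = 3) in DN2a-like and 122% ± 4.28 (n = 3) in DN2b-like cells.

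Lef1 came last. DN2a-like cells had 62.6, 20 and 31.2 CPM, DN2b-like cells had 121, 29.3 and 80.9 CPM and DN3-like cells had 215, 70.5 and 201 CPM. The stages overlapped between runs, because run 2 was lowest throughout, but within each run every step was upward. Lef1 was at 24.3% ± 7.62 (SD, n = 3) of DN3-like in DN2a-like and 46% ± 8.81 (n = 3) in DN2b-like cells. ETP-like cells had more Lef1 than the DN2a-like cells of their run, with 45.3 CPM in run 2 (8 UMIs) and 89.6 CPM in run 3 (34 UMIs). This was 54.4% ± 13.9 (SD, n = 2) of DN3-like, no less than the 41.9% of Tcf7. Lef1 was thus the last factor only from DN2a-like cells on.

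The steps between stages were tested on counts summed per run and gate with edgeR's quasi-likelihood F test, with the run as a block and Benjamini-Hochberg adjustment over 12148 genes, at a threshold of 0.05. From ETP-like to DN2a-like cells, 5.02% of all genes were called, 2.92% as higher in DN2a-like and 2.1% as lower. Of the 4 factors, 3 were called higher. Bcl11b rose by a log2 fold change of 3.11 ± 0.245 (SE), a fold of 8.65, with an adjusted p of 1.41e-08. Tcf7 rose by 1.16 ± 0.184 on the log2 scale (adjusted p = 0.00023) and Gata3 by 1.32 ± 0.296 (adjusted p = 0.00789), each higher in 2 of 2 runs. The log2 fold change of Lef1 was -1.12 ± 0.359 (adjusted p = 0.0708), lower in 2 of 2 runs and not called by edgeR, though DESeq2 called it (-1.29, adjusted p = 0.0112). Within both runs the log2 ratio of Bcl11b was above that of Tcf7, and their counting intervals did not overlap (2.17 to 4.53 against 0.854 to 2.13 in run 2, and 2.35 to 3.39 against 0.706 to 1.38 in run 3). These intervals do not cover the spread between cells or animals, and the difference between the 2 genes was not tested.

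DN2a-like cells were marked more by Cpa3 (467, 550 and 395 CPM) than by Kit (35.5, 31.3 and 52 CPM), and they carried Nkg7 (368, 362 and 317 CPM) and Trdc (528, 597 and 376 CPM), as ETP-like cells did (Nkg7 419 and 279 CPM, Trdc 136 and 253 CPM). The part of such transcripts in the step was not tested. The median of all genes at this step was 0.14 on the log2 scale, against -0.01 with median-ratio size factors. Under these, 196 of 524 called genes were higher rather than 355 of 610, and the 3 calls of the factors held. Gata3 lost its edgeR call with positive gate genes at 2 UMIs (1.55) and without the highest doublet scores (1.13), where Bcl11b and Tcf7 kept theirs. Without run 2 or without run 3, which leaves 1 ETP-like library that is assumed to vary like the other gates, Bcl11b stayed called by edgeR (log2 fold changes 3.07 and 3.37, adjusted p = 0.000779 and 0.000368), while Tcf7 (0.96 and 1.32, adjusted p = 0.106 and 0.076) and Gata3 (1.11 and 1.78, adjusted p = 0.223 and 0.0817) did not.

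From DN2a-like to DN2b-like cells, 0.601% of genes were called, 0.428% as higher and 0.173% as lower, and from DN2b-like to DN3-like cells 0.947%, with 0.288% higher and 0.659% lower. At both steps 1 of the 4 factors was called, Lef1. It rose by 0.98 ± 0.193 (SE) on the log2 scale at the first (adjusted p = 0.0126) and by 1.17 ± 0.183 at the second (adjusted p = 0.00138), in 3 of 3 runs each time, by edgeR. Without run 2 the adjusted p-values of edgeR were 0.102 and 0.0786 (log2 fold changes 1.19 and 1.12), and without run 3 they were 0.931 and 0.231 (0.78 and 1.07). For Bcl11b, Tcf7 and Gata3 the log2 fold changes lay between -0.24 and 0.13 over both steps, with 95% limits from -0.549 to 0.368. The DN2b-like gate of run 1 held 20.9% cells with a doublet score in the top 8% of the run, and without such cells of all runs Lef1 had 0.95 (adjusted p = 0.0676) and 1.29 (adjusted p = 0.00391) at the 2 steps by edgeR. Without cells holding a UMI of the cycling genes Mki67, Top2a or Cdk1 it had 0.90 (adjusted p = 0.207) and 0.85 (adjusted p = 0.364). Gata3 was lower in 3 of 3 runs at each of these steps, and the fit with only DN2b-like and DN3-like libraries called it at the second (-0.28, adjusted p = 0.0495 by edgeR).

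**Figure D2:**
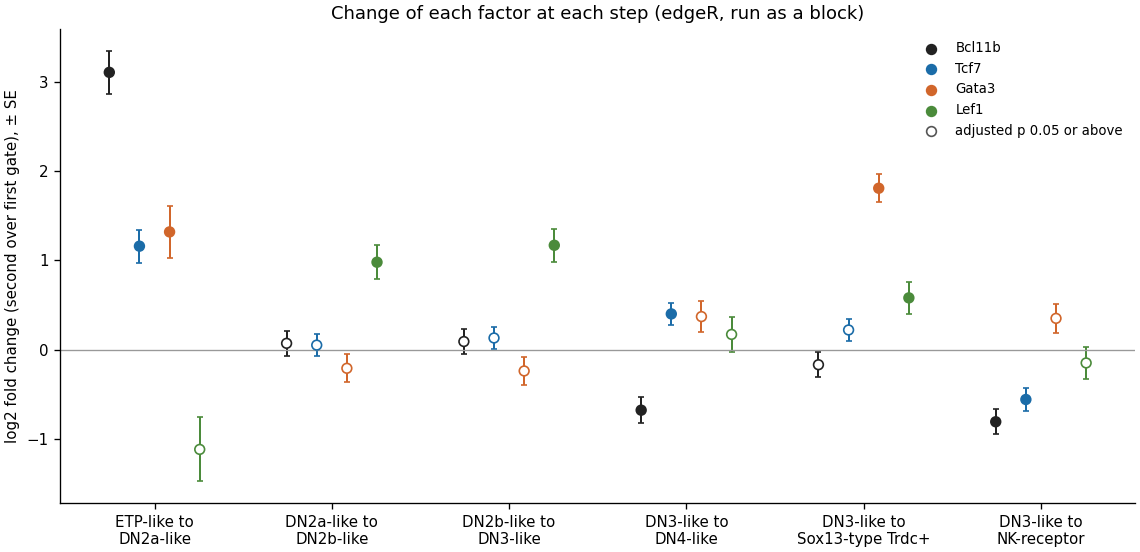
Log2 fold change of each factor (y axis, second gate over first, with the standard error from edgeR) at 6 steps (x axis), where filled points passed an adjusted p of 0.05. Bcl11b has the largest value, 3.11 at the ETP-like to DN2a-like step, Lef1 alone is filled at the next steps, and Gata3 reaches 1.81 in Sox13-type Trdc+ cells.

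DN4-like cells were set against DN3-like cells. The DN4-like gates of runs 2 and 3 were small, came from sorts without DN4 and carried innate and Trac transcripts that run 1 had little of, as given with the listed genes. Bcl11b was lower, at 305, 256 and 462 CPM, below the DN3-like level of each run. Tcf7 was higher, at 586, 523 and 455 CPM. Of all genes, 12.7% were called at this step, 4.45% as higher and 8.2% as lower, and 2 of the 4 factors were called. Bcl11b fell by 0.68 on the log2 scale (SE 0.145, adjusted p = 0.00253, lower in 3 of 3 runs) and Tcf7 rose by 0.40 (SE 0.128, adjusted p = 0.041, higher in 3 of 3 runs) by edgeR. Gata3 had 97.8, 162 and 130.4 CPM (log2 fold change 0.37 ± 0.175, adjusted p = 0.182) and Lef1 236, 126 and 174 CPM (0.17 ± 0.197, adjusted p = 0.642). DN4-like cells were also those with the most cells holding a UMI of a cycling gene in run 1 (85.7% against 50.7% of DN3-like cells). These shares were 31.6% and 46.2% in the small DN4-like groups of runs 2 and 3. They were read without thinning, and in run 1 DN4-like cells were deeper (median 9111 UMIs against 5045 in DN3-like cells). Without cells holding a UMI of a cycling gene, the Bcl11b call held and the Tcf7 log2 fold change was 0.45 (edgeR adjusted p = 0.0797). By edgeR, leaving out run 1, 2 or 3 gave adjusted p-values of 0.163, 0.417 and 0.0975 for Tcf7 (0.30, 0.29 and 0.54), those without run 2 or 3 were 0.0849 and 0.0631 for Bcl11b (-0.69 and -0.60), and Gata3 was called without run 1 (0.67, adjusted p = 0.0163).

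Sox13-type Trdc+ cells, which carry γδ T cell transcripts, had the most Gata3 of all gates. Their levels were 269, 442 and 334 CPM, each above every DN value of Gata3. The 442 CPM came from run 2, whose sort took DN1 and DN2 without TCRγδ+ cells. Among its DN1 subsets, the paper reports high Sox13 in DN1d cells and high Gata3 in DN1d and DN1e-1 cells. Whether this gate held the same kind of cell in the 3 runs was not tested. Lef1 was also high, at 287, 154 and 257 CPM, above the DN3-like level of each run. Against DN3-like cells, 20.3% of genes were called, 10.9% as higher and 9.41% as lower, and 2 of the 4 factors were called higher. Gata3 rose by 1.81 ± 0.156 (SE) on the log2 scale, a fold of 3.5, with an adjusted p of 1.14e-08 by edgeR and in 3 of 3 runs. Lef1 rose by 0.58 ± 0.176 (adjusted p = 0.021, 3 of 3 runs). Bcl11b, at 384, 420.2 and 732 CPM, had a log2 fold change of -0.17 ± 0.137 (95% limits -0.438 to 0.1), and Tcf7, at 537, 404 and 517 CPM, one of 0.22 ± 0.123 (-0.0198 to 0.462). The Gata3 call held without any one run, while the Lef1 log2 fold change was 0.37 without run 2 and 0.77 without run 3 (edgeR adjusted p = 0.361 and 0.0705).

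NK-receptor cells had less Bcl11b and Tcf7 than DN3-like cells. The Bcl11b levels were 413, 219.96 and 321 CPM, those of Tcf7 were 398, 207 and 245 CPM, and in every run both lay below the DN3-like level. Of all genes, 31.7% were called, 18% as higher and 13.7% as lower, and 2 of the 4 factors were called lower. Bcl11b fell by 0.81 on the log2 scale (SE 0.141, adjusted p = 8.36e-05) and Tcf7 by 0.56 (SE 0.126, adjusted p = 0.00125), each in 3 of 3 runs, by edgeR. Gata3 was at 137, 142 and 93.8 CPM (log2 fold change 0.35 ± 0.159, adjusted p = 0.0941). Lef1 was at 300.1, 62.3 and 127 CPM (-0.15 ± 0.179, adjusted p = 0.561), higher than DN3-like in run 1 and lower in runs 2 and 3. Without run 1, whose gate held few and Trdc-rich cells, edgeR called Gata3 (0.43, adjusted p = 0.00528) and Lef1 (-0.41, adjusted p = 0.0465), and the Tcf7 call was lost without run 2 (-0.53, adjusted p = 0.0729) or run 3 (-0.45, adjusted p = 0.1).

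A second ordering gave the onset inside the early stages. Cells outside the B-like, myeloid, erythroid, Sox13-type and NK-receptor gates, with at least 4 UMIs over 10 progenitor genes and 5 later genes (Ptcra, Rag1, Rag2, Notch3 and Dntt), were sorted by the share of the later genes among these UMIs. Bcl11b in run 2 was at 164 CPM in the bin above 0 to 0.25 and then at 281, 394, 396 and 426.5 CPM up to the bin in which all panel UMIs were late. In run 3 it was at 173, 470.4, 656, 699 and 755 CPM. The rises from the first of these bins to the second and from the second to the third passed the counting intervals in both runs. Later bins differed less.

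The first of these bins gave an order of the 4 factors. As a percent of the last bin, Gata3 was at 98.2 in run 2 and 82.6 in run 3, Tcf7 at 67.04 and 52.5, Bcl11b at 38.4 and 22.95, and Lef1 at 21.8 and 14.4. The order was the same in both runs. The ranges of the 2 runs did not meet for Gata3 over Tcf7, for Tcf7 over Bcl11b and for Bcl11b over Lef1. Lef1 rested on 14 UMIs in run 2 and 30 UMIs in run 3 in this bin, so its place below Bcl11b is uncertain. The gap between Bcl11b and Lef1 was narrow, with the lower Bcl11b value at 22.95 and the higher Lef1 value at 21.8. No background was taken off these percents. In the first bin Bcl11b was at 164 and 173 CPM. B-like cells had 102 CPM of Bcl11b in run 2 and 310 CPM in run 3, or 114 CPM in run 3 with at least 4 B cell genes. The order of the factors above background was not tested. Gata3 passed through a maximum of 176 CPM in run 2 and 104 CPM in run 3 in the bin from 0.5 to 0.75 and stood at 123.4 and 84.2 CPM in the last. In the first of these bins Gata3 was at 121 and 69.5 CPM, so its percent would be smaller against its maximum. Its gap over Tcf7 is thus stated only for the last bin as the reference. Lef1 stayed at 14.5 to 22.9 CPM in run 2 and 31.1 to 39 CPM in run 3 over the first 3 bins, and reached 66.5 and 216 CPM in the last. Run 1 held 22 cells in the first bin and was not read there.

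**Figure D3:**
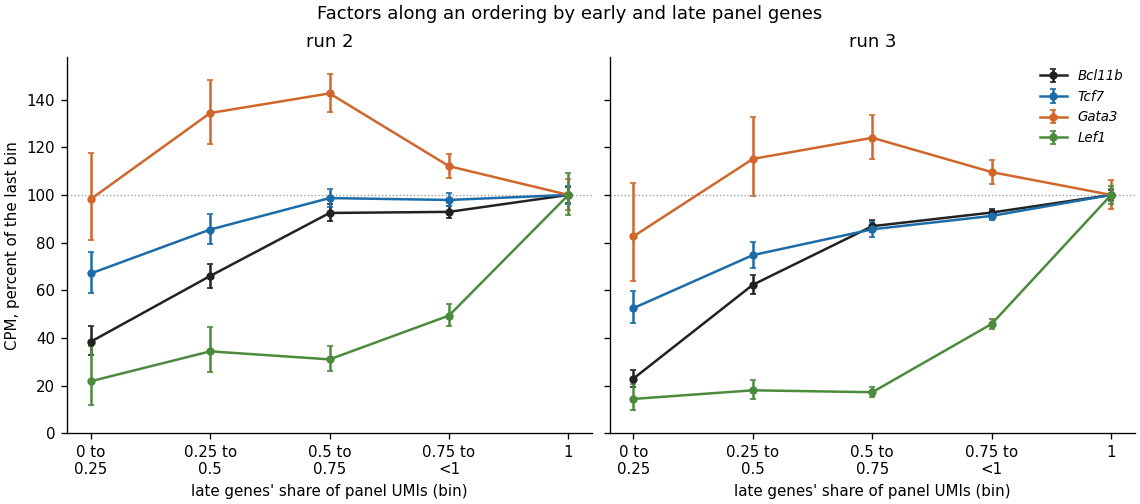
Level of each factor (y axis, CPM as a percent of the last bin of the run) along bins of the share of later genes among panel UMIs (x axis) in runs 2 and 3, with counting intervals. Gata3 starts at 98.2 and 82.6 and peaks in the bin from 0.5 to 0.75, Tcf7 and Bcl11b approach their last level by the same bin, and Lef1 is low until the last 2 bins.

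Cells with no later gene among their panel UMIs stood outside this order. With Il2ra they numbered 27 in run 2 and 10 in run 3, where Tcf7 (297 and 360 CPM) exceeded Bcl11b (77.7 and 167 CPM). Without Il2ra they numbered 28 and 27, with Bcl11b at 113 and 293 CPM. Lef1 in the cells with Il2ra was at 4.57 CPM in run 2 (1 UMI) and at 260 CPM in run 3 (39 UMIs), beside 66.5 and 216 CPM in the last bin. In run 3 those without Il2ra had 641 CPM of Lef1 and 938 CPM of Trdc. The Sox13-type Trdc+ cells of that run, which were left out of the bins, had 257 and 1225 CPM. Which kinds of cells these bins held was not tested.

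Detection in single cells was compared after each cell was thinned to 2000 UMIs, since a deeper cell shows more genes. The floor was read in B-like cells of run 3 with at least 4 of 6 B cell genes (379 cells, median 5232 UMIs before thinning), a type that should lack Bcl11b, Tcf7 and Gata3. This group was chosen after the data had been seen. In it Bcl11b was found in 7.92% of cells (exact binomial 95% interval 5.4 to 11.1), Tcf7 in 6.33% (4.1 to 9.28), Gata3 in 2.37% (1.09 to 4.46) and Lef1 in 7.92% (5.4 to 11.1). Its summed levels were 114, 64, 21.2 and 54.2 CPM, respectively. All B-like cells of run 3, the wider group with at least 2 such genes, had Bcl11b in 22.6% and Il2ra at 180 CPM, against 77.4 CPM of Il2ra in the narrower group.

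In the 31 ETP-like cells of run 3 (median 10671 UMIs before thinning), Bcl11b was found in 12.9% (interval 3.63 to 29.8). That interval meets the one of the narrower B-like group, and the level of 87 CPM lay below the 114 CPM of that group. These B-like cells were shallower (median 5232 UMIs) and held Il2ra at 77.4 CPM, which the ETP-like gate left out. The comparison thus cannot tell whether the ETP-like Bcl11b values were background. A fold against them, such as the 8.65 of the ETP-like to DN2a-like step, may be a fold against background. Lef1 was found in 19.4% (7.45 to 37.5). Tcf7 was found in 25.8% (11.9 to 44.6) and Gata3 in 16.1% (5.45 to 33.7), above the intervals of the narrower B-like group. Both met the intervals of the wider B-like group of run 3, which had Tcf7 in 16.3% (13.2 to 19.7) and Gata3 in 6.36% (4.44 to 8.77). Before thinning, the 4 shares were 32.3% for Bcl11b, 71% for Tcf7, 35.5% for Gata3 and 38.7% for Lef1. In the 21 ETP-like cells of run 2 the thinned shares were 14.3% for Bcl11b, 23.8% for Tcf7, 4.76% for Gata3 and 4.76% for Lef1. The 24 B-like cells of that run (at least 2 B cell genes) had Bcl11b in 12.5%, Tcf7 in 25%, Gata3 in 4.17% and Lef1 in 0%. Their levels of Bcl11b, Tcf7 and Gata3 were 102, 76.6 and 21.9 CPM, against 39.6, 124 and 50.9 CPM in the ETP-like cells. With 21 and 24 cells, the shares of run 2 cannot tell the ETP-like cells from background. Lef1 is also expressed by early B cells, which gives it no such floor. In DN2a-like cells of run 3 Lef1 was found in 6.33% (4.85 to 8.09) at 31.2 CPM, no more than in the B-like cells.

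At the same thinned depth, Bcl11b was found in 62.8%, 52.6% and 68.7% of DN2a-like cells in runs 1, 2 and 3, Tcf7 in 44.3%, 48.6% and 55.2%, Gata3 in 26.2%, 27.8% and 20.4%, and Lef1 in 10.3%, 4.5% and 6.33%. In DN3-like cells Lef1 was found in 29.8%, 10.5% and 28.9%, and Gata3 in 20.6%, 20.03% and 15.7%. Unthinned, Lef1 was found in 20.3%, 12.9% and 23.6% of DN2a-like and in 57%, 25.1% and 56.9% of DN3-like cells.

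ETP-like cells were mostly without any detected factor. None of the 4 was found in 66.7% and 58.1% of ETP-like cells (runs 2 and 3), in 15.4%, 18.1% and 11.4% of DN2a-like cells and in 7.34%, 16.7% and 7.1% of DN3-like cells. All 4 were found in 0 of 21 and 0 of 31 ETP-like cells, in 1.47%, 0.889% and 0.322% of DN2a-like cells and in 2.17%, 0.401% and 1.71% of DN3-like cells. Between DN2a-like and DN3-like cells, the share with all 4 was higher in DN3-like cells in runs 1 and 3 and lower in run 2. Sox13-type Trdc+ cells had all 4 in 10.1%, 8.26% and 9.17% of cells, above every DN gate of the same run and with little spread between runs. NK-receptor cells with none made up 41.8% in run 2 and 35.4% in run 3, but 11.1% of the 72 cells of run 1.

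**Figure D4:**
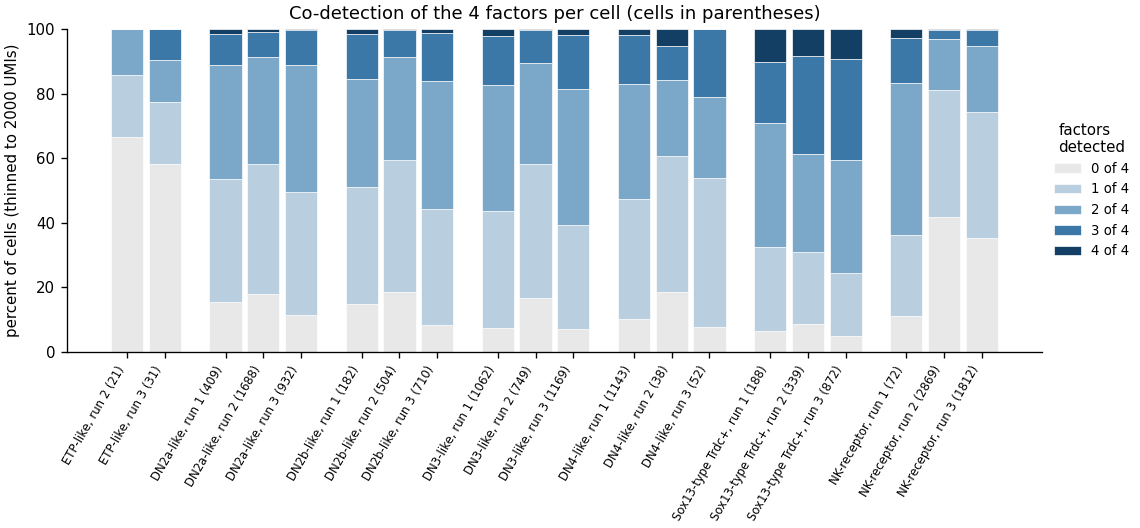
Share of cells (y axis, percent, each cell thinned to 2000 UMIs) with 0 to 4 of the factors detected, for each gate and run with at least 20 cells (x axis, cells in parentheses). ETP-like cells are mostly without any (66.7% and 58.1%), and Sox13-type Trdc+ cells have the largest darkest caps, with all 4 in 10.1%, 8.26% and 9.17% of cells.

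Bcl11b and Tcf7 were found together in 27.6%, 26.1% and 39.2% of DN2a-like cells, where the product of their shares was 27.8%, 25.6% and 37.9%. In DN3-like cells the same pair was found in 33.2%, 27.2% and 39.9%, with products of 34.5%, 27.4% and 40.2%. Over the 6 pairs and 3 runs, the joint share lay above the product in 15 of 18 cases in DN2a-like cells (differences of -0.218 to 1.29 percentage points), 14 of 18 in DN2b-like (-0.397 to 2.63), 7 of 18 in DN3-like (-1.22 to 1.85) and 10 of 18 in DN4-like cells (-5.25 to 6.58). It did so in 16 of 18 cases in Sox13-type Trdc+ cells (-0.554 to 5.57) and 8 of 18 in NK-receptor cells (-4.01 to 4.21). Bcl11b and Gata3 shared 41% and 39% of Sox13-type Trdc+ cells in runs 2 and 3, against products of 37.6% and 36.3%, and 20.7% against 20.4% in run 1. The same pair shared 13.8% of DN3-like cells in run 2, against 11.9%. Bcl11b and Tcf7 shared 7.39% and 12.4% of NK-receptor cells in runs 2 and 3, against 5.14% and 9.63%, though 23.6% against 27.1% in run 1. Cells of 1 library share their depth and sort, so these are descriptions.

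Cells with Tcf7 but not Bcl11b, and the reverse, were counted along the second ordering. In the bin above 0 to 0.25, Tcf7 without Bcl11b was found in 26 of 110 cells in run 2 and 18 of 74 in run 3, and Bcl11b without Tcf7 in 22 and 11. In the last bin, Tcf7 without Bcl11b was found in 245 of 1207 and 168 of 1263 cells, and Bcl11b without Tcf7 in 374 and 445. In the first bin Tcf7 alone was the larger group by few cells, with 26 against 22 in run 2 and 18 against 11 in run 3. Cells with no later gene gave 8 with Tcf7 alone against 3 with Bcl11b alone in run 2 with Il2ra, and 7 against 5 without it. In run 3 these counts were 6 against 1 and 10 against 4. The differences were not tested. In the last bin the cells with Bcl11b alone were the larger group in both runs. Run 1, whose last bin includes the DN4 sort, had the reverse there, with 1059 cells with Tcf7 alone against 842 of 3569. Its first bin had 2 against 8 of 22 cells.

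Genes of the T cell pathway around the factors were taken as 5 lists, counted by the same edgeR tests. T-identity genes, which encode CD3 chains, T cell receptor signalling proteins and other T cell surface proteins, were higher in DN2a-like than in ETP-like cells for 5 of 14, with none lower and a median log2 fold change of 0.53 against 0.14 for all genes. The largest change was that of Cd3g, 2.67 ± 0.18 (SE, adjusted p = 1.54e-09). Among 11 progenitor regulators, 7 fell and none rose, with a median of -2.46. Meis1, a stem cell homeobox gene, fell by 5.26 on the log2 scale (SE 0.917, adjusted p = 0.0016). This rests on 8 UMIs in ETP-like and 8 UMIs in DN2a-like cells, which had far larger total counts. Among 14 partner regulators, 4 rose, and Gfi1, a repressor of blood lineages, had the largest change (2.36 ± 0.652, adjusted p = 0.0344). Its counts were 3 UMIs in ETP-like and 716 UMIs in DN2a-like cells. Of 6 Notch genes, Notch3 was called, with 0 UMIs in ETP-like cells and 462 in DN2a-like cells of the same runs, at least 3.34-fold higher with 3 UMIs over the gate as the floor. Of 8 innate genes, which mark natural killer and other innate-type lymphocytes, Tyrobp, an adaptor of natural killer and myeloid receptors, fell by 3.35 (SE 0.555, adjusted p = 0.000399) and none rose.

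At the steps where Lef1 rose, 6 of the 53 listed genes (11.3%) were called from DN2a-like to DN2b-like cells and 7 (13.2%) from DN2b-like to DN3-like cells, beside 0.601% and 0.947% of all genes. From DN2a-like to DN2b-like cells, 2 T-identity genes rose, with Cd3d, a CD3 chain, the larger (1.77 ± 0.172, edgeR adjusted p = 1.12e-06). Of the Notch genes 2 rose, led by the ubiquitin ligase gene Dtx1 (2.07 ± 0.317, adjusted p = 0.000969), 1 partner regulator rose (Ets2, 1.14 ± 0.241) and 1 progenitor regulator fell (Lyl1, -1.47 ± 0.304). From DN2b-like to DN3-like cells, the same 4 genes were the largest changes of their lists, with Cd3d at 1.05 ± 0.167, Dtx1 at 1.45 ± 0.256, Ets2 at 0.95 ± 0.208 and Lyl1 at -3.77 ± 0.494. Over the 14 T-identity genes the medians at the 2 steps were 0.24 and 0.18, over the 6 Notch genes 0.33 and 0.20, over the 14 partner regulators -0.04 and -0.04, and over the 11 progenitor regulators -0.95 (-0.56 with 1 gene at 0 UMIs set to its floor) and -1.19, against -0.01 and 0.02 for all genes. None of the 8 innate genes was called at either step (medians -0.39 and -0.40).

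From DN3-like to DN4-like cells, where Bcl11b fell, 4 of 6 Notch genes fell and none rose, with Hes1, a Notch target, at -3.05 ± 0.232 (SE, edgeR adjusted p = 3.51e-09). T-identity genes went both ways, with 6 higher and 5 lower. Cd6 rose the most (1.66 ± 0.246) and Cd3g fell the most (-1.41 ± 0.131). Among partner regulators 2 rose and 4 fell, led by Myb (-1.28 ± 0.196), and 3 progenitor regulators fell, led by Bcl11a (-4.22 ± 0.474). Of 8 innate genes 5 rose, and Il18r1, an interleukin receptor chain, had the largest change (6.09 ± 0.44, adjusted p = 2.32e-09). Its DN4-like level was 0.536 CPM in run 1 (6 UMIs) but 72.7 CPM in run 2 (20 UMIs) and 239 CPM in run 3 (135 UMIs), and Zbtb16 was at 0 CPM in run 1 and at 32.7 and 63.8 CPM in runs 2 and 3. Rora was at 1.34, 32.7 and 88.6 CPM, so high levels of these innate genes were seen in the 38 and 52 cells of runs 2 and 3 and not in the 1143 of run 1. Trac likewise was at 33.5 CPM in run 1 and at 184 and 162 CPM in runs 2 and 3. The part of these cells in the DN4-like values of the factors was not tested. The medians were 0.06 for T-identity, -1.76 for Notch, 0.03 for partner, -2.55 for progenitor and 2.27 for innate genes, against -0.03 for all genes. With 3 progenitor genes at 0 UMIs in DN4-like cells set to their floor, that list's median was -1.67.

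In Sox13-type Trdc+ cells against DN3-like cells, 7 T-identity genes were higher, led by Cd5, an inhibitor of receptor signals (2.52 ± 0.331, edgeR adjusted p = 4.19e-06), and 4 lower. Of the Notch genes 4 were lower, led by Dtx1 (-2.49 ± 0.301). Partner regulators were higher for 6 genes, led by Tox, a factor of T cell development (1.95 ± 0.158), and lower for 3, and innate genes were higher for 5 of 8, led by Rora (5.17 ± 0.531). Of the progenitor regulators Lyl1 was higher (2.98 ± 0.569) and 2 were lower. In NK-receptor cells all 8 innate genes were higher, led by Tbx21, the gene for T-bet (5.65 ± 0.347, adjusted p = 1.26e-11), and 8 of 11 progenitor regulators were higher with none lower, led by Lyl1 (4.25 ± 0.456). T-identity genes were higher for 7, led by Cd5 (3.04 ± 0.321), and lower for 6. Partner regulators were higher for 5, led by Runx3 (1.90 ± 0.265), a factor of cytotoxic cells, and lower for 7. Notch genes were higher for 1 and lower for 5, led by Notch3 (-2.35 ± 0.233). The medians in these cells were 5.27 for innate, 1.75 for progenitor, 0.18 for T-identity, -0.24 for partner and -1.14 for Notch genes, against -0.04 for all genes, and in Sox13-type Trdc+ cells they were 1.82, -0.24, 0.74, 0.06 and -1.47, respectively, against -0.05. Neither gate asked for Kit and Cpa3 at 0, as the DN3-like gate did. Cpa3 was at 95.7, 179 and 103 CPM in NK-receptor cells and at 109, 398 and 227 CPM in Sox13-type Trdc+ cells. The part of Cpa3-bearing cells in the progenitor regulator values was not tested.

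Genes whose level followed each factor most closely were found over the 27 libraries of run and gate, by Pearson correlation of log2(CPM + 1). The points share 3 runs and their depth, so the values are descriptions. Bcl11b was nearest to E330009J07Rik (0.923), 1300002E11Rik (0.922) and Cacna2d4 (0.903), Tcf7 to Tnnt1 (0.906), Mrpl9 (0.902) and Colq (0.899), Gata3 to Rcbtb2 (0.921), Uqcrh (0.898) and Xlr4b (0.897), and Lef1 to Lef1os1 (0.909), Camkk1 (0.849) and Cd3d (0.844). Lef1os1 is named as an opposite-strand transcript of Lef1, and whether counting used the strand is not given in the sources used here, so its reads and those of Lef1 may not be told apart. Among the factors, Bcl11b and Tcf7 were most alike (0.839) and Bcl11b and Lef1 least (0.583).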

How the data were processed

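Single-cell RNA of sorted mouse thymocytes was measured in 3 droplet libraries (Chromium 3′ kit). The authors aligned reads to mm10 with Cell Ranger, and they deposited raw UMI counts per gene and called cell, without normalization, filter or doublet removal. The header of run 3 names version 4.0.0, and the study names 2.1.1 or 4.0.0 without saying which was used for the other runs. The cell filter was that stated in the report, and doublets were not removed except in an alternative. The study states other cell numbers after its own filter and doublet removal.

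Stage gates used UMIs as deposited, applied in a fixed order with B-like, myeloid or erythroid, Sox13-type and NK-receptor cells first. Counts were summed per run and gate for gates with at least 20 cells (27 libraries), normalized by TMM, filtered by filterByExpr (12148 genes) and tested with edgeR 4.0.16 and limma 3.58.1 in R 4.3.3 (glmQLFTest, two-sided, run as a block, 15 residual degrees of freedom). The block was taken because the gates of a run come from 1 library. Deviations from the gate means correlated within all 18 same-run pairs of DN gates (lowest 0.282, median 0.591). CPM are counts summed over a gate and scaled to a common total, with exact Poisson intervals, and shares have exact Clopper-Pearson intervals. Intervals and floors cover counting error only. With 3 runs an exact sign-flip test cannot go below 0.25. Thinning and Scrublet (scanpy 1.11.5) used fixed seeds. DESeq2 1.42.0 was an alternative.

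The test was tried on simulated data with 200 genes changed by 1 log2 unit. It recovered 46 at the ETP-like to DN2a-like step (2 false among 48 calls), 176 at the next (11 among 187) and 173 from DN2b-like to DN3-like (7 among 180). The median error of the changed genes was 0.13 on the log2 scale at the ETP-like to DN2a-like step. Counts were drawn from the means and dispersions of the same fit, so cells placed in a wrong gate are outside this trial.

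The members, gates and lists were chosen with earlier results of these data known. The text names the 4 factors, the listed genes by count with the largest called change in each list, and the 3 genes most like each factor. Symbols that share a locus limit the counts. Tcf7 overlaps Gm26551 on its strand and A630014C17Rik on the other, Gata3 overlaps 9230102O04Rik on its strand and Gm13256 and 4930412O13Rik on the other, and Lef1 overlaps Gm43352 on the other strand. A 3′ count does not tell isoforms apart.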

Additional observations from a re-analysis of the deposited data

Results flagged for a closer look

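From DN3-like to DN4-like cells, Gata3 moved apart between runs beyond the counting intervals, with log2 ratios of -0.17 in run 1, 0.62 in run 2 and 0.79 in run 3. From DN3-like to NK-receptor cells, Lef1 did so with 0.48 in run 1 and -0.66 in run 3. These differences between runs were not tested, since each sort was made once.

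The factors were also present in cells of run 3 that the filter removed, which enter no comparison. In 552 cells above 5000 genes (median 32189 UMIs), Bcl11b was at 391.98 CPM, Tcf7 at 456.95, Gata3 at 94.564 and Lef1 at 215.24. In 607 cells above 7% mitochondrial counts (median 1666 UMIs), Bcl11b was at 886.76 CPM, above the 562 CPM of kept cells, with Tcf7 at 338.93, Gata3 at 100.99 and Lef1 at 196.44. In 199 cells under 500 genes (median 666 UMIs), Bcl11b was at 361.52 CPM, Tcf7 at 111.24, Gata3 at 69.523 and Lef1 at 146.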

How the results depend on the processing

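The rise of Bcl11b from ETP-like to DN2a-like cells and that of Gata3 in Sox13-type Trdc+ cells kept their call under all alternatives run, with log2 fold changes of 2.88 to 4.85 and 1.67 to 2.55. Over the factors, steps, counts, levels and shares, 391 alternative values kept their direction and side of the threshold or moved within the spread, 58 moved, 37 lost a call, 11 gained one and 7 turned direction, and the cause was not tested. The fit without cycling cells had too few ETP-like cells for that step.

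Without the run block, calls by edgeR were 214 from ETP-like to DN2a-like cells, 4 at the next step, 2 from DN2b-like to DN3-like, 130 in DN4-like, 214 in Sox13-type Trdc+ and 594 in NK-receptor cells, against 610, 73, 115, 1537, 2469 and 3852 with it. The unblocked log2 fold changes of Lef1 (1.03, 1.12 and, in Sox13-type cells, 0.49), of Bcl11b in DN4-like (-0.69) and NK-receptor cells (-0.82) and of Tcf7 in the same cells (0.40 and -0.53) were not called.

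Leaving out 1 run gave 86 to 815, 5 to 138, 2 to 299, 413 to 1189, 611 to 3369 and 1185 to 4937 calls in the same order. It gave 0.96 to 1.32 for Tcf7 and 1.11 to 1.78 for Gata3 at the ETP step, -0.04 to 0.14 for Tcf7 and 0.78 to 1.19 for Lef1 from DN2a-like to DN2b-like, and 1.07 to 1.27 for Lef1 to DN3-like. In DN4-like cells the ranges were -0.78 to -0.60 for Bcl11b, 0.29 to 0.54 for Tcf7, 0.19 to 0.67 for Gata3 and -0.00 to 0.40 for Lef1, in Sox13-type cells 0.37 to 0.77 for Lef1, and in NK-receptor cells -0.68 to -0.45 for Tcf7, 0.27 to 0.43 for Gata3 and -0.41 to 0.14 for Lef1.

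With positive gate genes at 2 UMIs, calls numbered 379, 14 and 55 at the first 3 steps, the log2 fold changes were 1.55 (Gata3, ETP), -0.06 (Tcf7) and 1.05 (Lef1) to DN2b-like, 0.48 (Tcf7, DN4-like), 0.40 (Tcf7, Sox13-type) and 0.49 (Gata3, NK-receptor), and the percent of the DN3-like level was 2.82 for Bcl11b, 33.1 for Tcf7 and 27.9 for Lef1 in ETP-like and 89.2, 86.9, 134 and 27.2 for Bcl11b, Tcf7, Gata3 and Lef1 in DN2b-like cells. Sox13-type cells with all 4 were 10.6%. With gates set after thinning, Lef1 had 1.38 and 0.86 at its 2 steps and was called at neither. Tcf7 had -0.03 to DN3-like and Gata3 0.49 in NK-receptor cells, with 3 calls from DN2b-like to DN3-like. Percents were then 5.68, 36.4 and 28.2 for Bcl11b, Gata3 and Lef1 in ETP-like and 106, 109 and 139.8 for Bcl11b, Tcf7 and Gata3 in DN2b-like cells, and 13.5% of Sox13-type cells had all 4. Without the highest doublet scores, calls at the ETP step were 320, Gata3 had 1.13 there, Lef1 0.95 to DN2b-like and Tcf7 0.43 in DN4-like cells, the ETP-like percents were 12.1 (Bcl11b) and 49.04 (Tcf7), and 10.2% of Sox13-type cells had all 4. Without cycling cells, Tcf7 had -0.05, -0.09 and, in DN4-like cells, 0.45, Lef1 had 0.90 and 0.85 with 18 calls at the latter step, the DN2a-like percents were 113, 156 and 32.8 for Tcf7, Gata3 and Lef1, that of Tcf7 in DN2b-like cells 108, and all 4 were found in 1.61% of DN2a-like and 10.9% of Sox13-type cells.

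DESeq2 gave -1.29 for Lef1 at the ETP step and 37 calls to DN2b-like. With only the 2 gates compared, Lef1 had -1.38 at the ETP step, Gata3 -0.28 to DN3-like and 0.44 in NK-receptor cells, Tcf7 0.42 in DN4-like and 0.28 in Sox13-type cells, and calls were 744, 447 and 304 from DN2a-like to DN4-like. Without a filter on low counts Tcf7 had 0.41 in DN4-like cells. At 3000 UMIs, 2.40%, 3.86% and 17.2% of DN2a-like, DN3-like and Sox13-type cells had all 4, and with at least 8 panel UMIs Lef1 was at 10.1% of its last bin.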
